A study of Mus musculus with 18 samples.

Results

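Blood formation starts in the bone marrow from haematopoietic stem cells, whose daughters pass through multipotent progenitors before they commit to the erythroid, megakaryocytic, granulocytic, monocytic or lymphoid lineages. Multipotent progenitors no longer hold the identity genes of the stem cell in full, and do not yet carry a lineage programme. The cells described here are progenitors in which transcripts of Myl10, which codes for a myosin light chain, and of Ctla2a, which codes for a cathepsin inhibitor of the cysteine protease prodomain family, were both captured. They were chosen by raw counts of unique molecular identifiers (UMIs, each a captured RNA molecule): at least 1 UMI of Myl10 and at least 1 of Ctla2a, none of Flt3 and Dntt (lymphoid priming), Procr (stem cells), Klf1 (erythroid) and Cebpe (granulocytes), at most 2 of Pf4 (megakaryocytes) and fewer than 100 of Igkc (an antibody light chain). This gate held 474 of 8436 cells, or 5.62%.

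All cells came from bone marrow of 6 female C57BL/6 mice (C57BL/6J in the methods), 3 aged 8 weeks (mice 1, 3 and 5) and 3 aged 72 weeks (mice 2, 4 and 6), with no treatment. Cells were depleted of lineage-positive cells and sorted as LK, that is, negative for lineage markers and positive for the receptor Kit (Cd117), and each mouse gave 1 droplet library of 3′ transcript ends. The mouse is the replicate in every comparison between ages. Mice 1 and 2 stood apart from the others outside the gate: mast cell and basophil genes held 0.654% and 0.521% of the UMIs of their other LK cells, against 0.0546% to 0.270% in the other 4 mice. Counts of calls between ages and between gates are given with and without these 2 mice. Named genes that lose their call without them are listed.

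Libraries held 3628043 to 17585424 UMIs, and the gated cells of a mouse 300334 to 765291. The median gated cell had 5166 UMIs from 1865.5 genes, below the median of 6566.5 UMIs in the other LK cells. Among barcodes, 42 occurred in more than 1 library, and 4 gated cells carried such a barcode. No doublet caller was run. Of the gated cells, 9 (1.90%) were among the 5% of cells with the most UMIs in their mouse.

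The genes that set the gate describe it and test nothing. Myl10 (GRCm38 chromosome 5, 136693146 to 136701094, plus strand) stood at 1 UMI in 264 members, at 2 in 114 and at 3 or more in 96, with a highest count of 16. Ctla2a (chromosome 13, 60934155 to 60936625, minus strand) had a median of 3 UMIs, and 115 members held a single UMI. In 76 members both genes rested on 1 UMI each, so many cells entered the gate on the smallest count possible. Ctla2b lies close by at 60895350 to 60897447 on the same strand, and how reads that it may share with Ctla2a were counted was not tested. Ctla2b was listed at 0 to 6.07 CPM (counts per 1000000, here the UMIs of a gene per 1000000 UMIs of the summed cells of a mouse) in gated cells.

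Both genes were captured together in 1107 cells, so that 633 failed another condition. Just outside the gate, 116 cells failed on Procr alone, 103 on Flt3 alone, 79 on Dntt alone, 53 on Cebpe alone and 39 on Klf1 alone. Most of these were close to the edge: 94 of the 116 held 1 UMI of Procr, and 81 of the 103 held 1 UMI of Flt3. The limit on Pf4 alone removed 17 cells, with 3 to 147 UMIs, while inside the gate 380 members had no Pf4 UMI, 78 had 1 and 16 had 2. Igkc separated cleanly, with at most 39 UMIs in a member and at least 3234 in the 2 cells that failed on it alone.

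The remaining marker of the group, Adgrl4, was not part of the gate. It codes for an adhesion G protein-coupled receptor also known from endothelium (chromosome 3, 151437887 to 151545086, plus strand). Gated cells held 131, 123 and 126 CPM of Adgrl4 at 8 weeks and 145, 110 and 180 CPM at 72 weeks. The other LK cells of the same mice held 39.3 to 65.5 CPM, below the gated cells in 6 of 6 mice. A UMI of Adgrl4 was found in 49.2% of gated cells, and in 10.6% of the 1248 cells with both Klf1 and Car1, an erythroid group taken here as the measure of free RNA (median depths 5166 and 8412.5 UMIs). With every cell thinned to 2000 UMIs these shares were 23.7% and 3.94%. Adgrl4 did not set the gated cells apart from the neighbouring populations described further on: its log2 difference was -0.06 ± 0.19 (SE, edgeR adjusted p = 0.945) from the Procr gate and 0.26 ± 0.13 (adjusted p = 0.234) from the Flt3 and Dntt gate, with 95% intervals of -0.42 to 0.31 and 0.01 to 0.51.

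The gated cells made up 3.86%, 5.94% and 4.29% of the LK cells of the 8-week mice 1, 3 and 5, and 6.75%, 5.89% and 7.49% of those of the 72-week mice 2, 4 and 6. The ages overlapped, since mouse 3 lay above mouse 4. Young mice had a mean of 4.69% ± 1.10 (SD, n = 3), aged mice one of 6.71% ± 0.801 (SD, n = 3), a difference of 2.02 percentage points that the two-sided exact permutation test over mice did not separate (p = 0.2, where 0.1 is the smallest p that 3 against 3 allows). The same test did not separate the ages by depth: the median gated cell of a young mouse held 5408 ± 754 UMIs, and that of an aged mouse 5476 ± 1010 (SD over 3 mice each, exact p = 0.9). Dropping the conditions on Flt3 and Dntt gave a difference of 3.54 points with ages that did not overlap (exact p = 0.1).

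**Figure D1:**
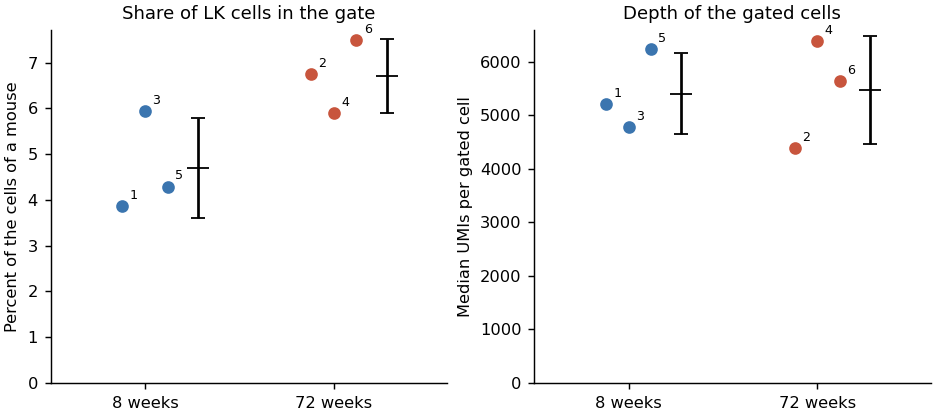
Percent of each mouse's LK cells in the gate (left) and the median UMIs per gated cell (right), 1 point per mouse with its number, and the mean with SD beside each age. The shares run from 3.86% to 5.94% at 8 weeks and from 5.89% to 7.49% at 72 weeks, with mouse 3 above mouse 4, and the depths of the ages overlap.

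The label of a multipotent progenitor was checked against genes outside the gate. Hlf, a transcription factor of stem cells, had a UMI in 24.5% of gated cells against 3.77% of the erythroid group, and Mecom, another stem cell transcription factor, in 19.0% against 1.52%. After thinning the shares were 10.9% against 1.37% and 8.53% against 0.562%. Of 23 stem cell identity genes outside the gate, 14 were higher in gated cells than in the other LK cells in 6 of 6 mice and 0 were lower, beside 14.4% higher and 13.1% lower among the 2723 genes with at least 50 CPM in either. The lists nearest to the label were split. Of 37 genes outside the gate from the study's cluster of multipotent and lymphoid-primed progenitors, 18 were higher and 15 lower in 6 of 6 mice. Their sum was lower in gated cells in each mouse, at 1.57% to 1.90% of UMIs against 1.86% to 2.88%. Of 18 surface protein genes of multipotent progenitors, 7 were higher and 4 lower. These counts describe a contrast that the gate itself drew.

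Erythroid, granulocyte and mast cell genes were mostly low. Of 19 erythroid genes outside the gate, 15 were lower than in the other LK cells in 6 of 6 mice and 0 higher, and of 20 granulocyte and monocyte genes 13 were lower and 2 higher. All 13 mast cell and basophil genes were lower. Of 20 megakaryocyte genes 2 were lower and 1 higher, and of 16 lymphoid priming genes 2 were lower and 0 higher. Beside these stand 14.4% higher and 13.1% lower among the 2723 genes with at least 50 CPM in either, a floor that the lists did not have. Nothing is read from the megakaryocyte and lymphoid counts. Gata1, the transcription factor of erythroid and megakaryocytic cells, had a UMI in 5.70% of gated cells and in 4.38% of the Flt3 and Dntt gate described further on. Irf8, which drives monocyte and dendritic cell fate, was found in 14.3%, near the 11.9% of the erythroid group, and at 6.40% against 5.86% after thinning. Since its share is near that of the erythroid group, it is not read as expression, and whether it comes from free RNA was not tested.

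Markers of mature cells were partly at 0. Of 14 B and plasma cell genes outside the gate, 5 had 0 UMIs in the 474 cells, Cd79a, Ms4a1 and Ebf1 among them, but the list summed to 0.0907% of the UMIs of gated cells in mouse 2 and to 0.00566% to 0.0146% in the other mice. Its members Ighm and Cd79b held up to 442 and 62.8 CPM. Of 10 T and NK cell genes 7 were at 0, with Cd3d, Cd3g and Trac among them, and Nkg7, a granule gene, held 322 to 605 CPM. Of 10 endothelial and stromal genes 4 were at 0, Cdh5, Cxcl12, Lepr and Col1a1, and Pecam1 held 24.3 to 46.5 CPM.

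A low level of some granulocyte genes went beyond the share in the erythroid group. Prtn3, which codes for proteinase 3 of neutrophil granules, had a UMI in 92.0% to 98.4% of the gated cells of a mouse and in 62.7% of the erythroid group. Thinned, its share was 78.5% against 31.6%. Mpo, myeloperoxidase, was found in 77.8% of gated cells and 74.2% of the erythroid group, and after thinning in 55.0% against 40.1%. Its level was 728 to 1389 CPM, against 1951 to 5271 CPM in the other LK cells. Elane, neutrophil elastase, fell at or under the share of the erythroid group, with 46.4% against 60.8% and, thinned, 26.4% against 27.7%. Car2, carbonic anhydrase 2, was found in 90.3% of gated cells, but a gene of the erythroid group cannot be set against that group. In the Flt3 and Dntt gate it was found in 72.8%, and after thinning in 40.1% against 68.9% of gated cells.

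The surface protein Cd34, which early progenitors carry, had a UMI in 69.2% to 87.8% of the gated cells of a mouse, against 25% of the erythroid group. Between ages the share of gated cells with a UMI did not separate for any of the 6 lineage genes tested (Mpo, Elane, Cd34, Itga2b, Car1 and Cd48), with adjusted p from 0.9 to 1 over the 6 exact permutation tests. For Cd34 the mean of the young mice was 79.4% ± 9.42 and that of the aged ones 73.6% ± 1.65 (SD over 3 mice each, exact p = 0.4). Thinned shares of Mpo were 63.0% ± 5.11 and 48.7% ± 11.95 (SD, n = 3, exact p = 0.2).

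**Figure D2:**
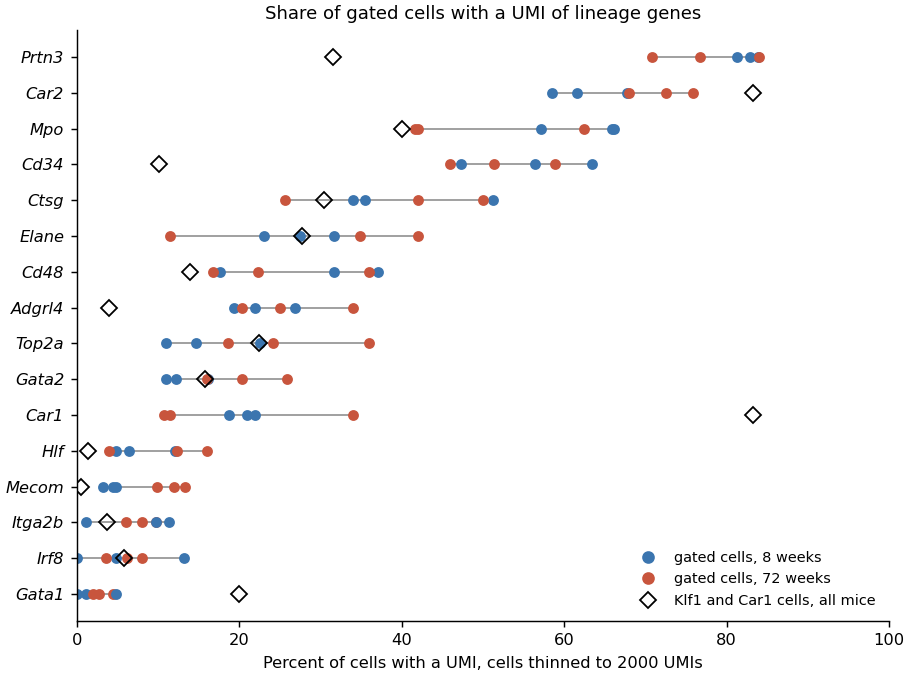
Percent of gated cells with a UMI of 16 genes after every cell was thinned to 2000 UMIs, with 1 point per mouse coloured by age, a line over their range and a diamond for the Klf1 and Car1 cells of all mice. Prtn3, Cd34 and Adgrl4 lie above the diamond in 6 of 6 mice, Elane and Irf8 on both sides of it, and Car1 and Gata1, both genes of the erythroid group itself, below it.

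A UMI of Top2a, Mki67 or Cdk1, genes of dividing cells, was captured in 244 members (51.5%). Thinned, the share with Top2a was 20.5% in gated cells, 20.3% in the other LK cells and 22.4% in the erythroid group. None of these groups is free of dividing cells, so the shares are not read as the part of cells in cycle. G2 and M phase genes took a median of 0.0625% of a member's UMIs, 71 members had none and the highest was 1.18%. Summed over a mouse, G2 and M phase genes held 0.145% ± 0.0623 of UMIs in young and 0.154% ± 0.0249 in aged mice (SD, n = 3, exact permutation p = 0.9), and S phase genes 0.313% ± 0.0584 and 0.323% ± 0.0149 (exact p = 0.9). Mitochondrially encoded genes held 0.893% ± 0.198 and 0.975% ± 0.256 (exact p = 0.7). No adjusted p over these and the cytosolic ribosomal genes was below 1.

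To place the cells between their neighbours, gated cells were compared first with cells that held Procr and a UMI of Hlf or Mecom. This Procr gate had 182 cells, of which 118 came from the aged mouse 4 and 8 to 24 from each other mouse. UMIs were summed per mouse and gate and compared within mice. Since Procr set both gates, the direction of genes that accompany it follows from how the gates were drawn. Of 3595 genes tested, 55 (1.53%) were higher and 73 (2.03%) lower in gated cells at an edgeR adjusted p under 0.05. With DESeq2 size factors the split was 42 higher and 88 lower.

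Part of the cell cycle genes were higher in the gated cells. Of 21 S phase genes tested, 8 were called higher and 0 lower, and of 15 G2 and M phase genes 4 were higher and 0 lower, with median log2 differences of 0.67 and 0.76 beside 0.00 for all genes tested. Summed, S phase genes held 0.323% of UMIs in aged gated cells and 0.181% in the aged Procr gate, but 0.313% and 0.298% in young mice, and in the young mouse 3 they were lower in gated cells (0.2503% against 0.2838%). Whether the gap differs between ages was not tested. Tyms, thymidylate synthase, stood at 206, 171, 144, 214, 160 and 163 CPM in the gated cells of mice 1 to 6. In the Procr gate it stood at 108, 43.9, 139, 49.4, 62.0 and 90.7 CPM, lower in each mouse. Its log2 difference was 1.48 ± 0.22 (SE, adjusted p = 3.2e-06), and 0.94 without mouse 4, where it no longer passed. Top2a, the topoisomerase of dividing cells, was higher by 1.07 ± 0.20, Mcm3 of the replicative helicase by 0.95 ± 0.20, the histone gene Hist1h2ap by 1.02 ± 0.14, and Cenpw, Cdca3 and Birc5, which act at the centromere or in mitosis, by 1.34, 1.30 and 0.89 on the log2 scale.

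Other leading increases lay outside the cell cycle lists. Cpa3, a mast cell carboxypeptidase also present in early progenitors, held 42.5 to 130 CPM in gated cells and 10.98 to 37.1 CPM in the Procr gate (1.38 ± 0.30, adjusted p = 0.00204). Without mice 1 and 2 Cpa3 kept its direction but was no longer called. The chemokine gene Ccl9 (1.29 ± 0.21), Tespa1 (1.10 ± 0.26) and the growth factor gene Mydgf (0.90 ± 0.21) were also higher. Set against all cells with a UMI of Procr, Cpa3 turned to -1.10 and Ccl9 to -0.02, so their direction depends on how the stem cells were taken. In that comparison Cenpw, Cdca3, Tespa1, Mydgf and Birc5 stayed higher but were no longer called. Cd34 was higher by 0.58 (adjusted p = 0.016).

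Stem cell identity and MHC class II genes stood among the lower ones. Of 10 stem cell identity genes tested outside both gates, 8 were lower and 0 higher, with a median of -1.04. Ly6a, which codes for the stem cell antigen Sca-1, held 108, 91.6, 54.6, 58.8, 26.6 and 40.0 CPM in the gated cells of mice 1 to 6 and 104 to 204 CPM in the Procr gate, lower by 1.59 ± 0.20 on the log2 scale (adjusted p = 1.04e-07). Pdzk1ip1 (-1.42 ± 0.19) and Trim47 (-1.62 ± 0.25) were lower too. Of 6 MHC class II genes tested 3 were lower: Cd74, the invariant chain (-2.68 ± 0.22), H2-Eb1 (-1.69 ± 0.29) and H2-Aa (-1.48 ± 0.24, but 0.082 with cells thinned, which left 2 mice). Of 3 GIMAP GTPases, Gimap5 (-1.27 ± 0.25) and Gimap6 (-1.21 ± 0.18) were lower. Shisa5, Tbxas1, Gstm1 and Gm15411 completed the 12 leading decreases. Set against all cells with a UMI of Procr, H2-Eb1, H2-Aa, Gimap5 and Tbxas1 stayed lower but were no longer called.

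The number of calls moved with single mice. Without mouse 4, 8 genes were higher and 13 lower, and 7 of the 16 leading genes that could still be tested were lost, among them Tyms, Top2a, Mcm3, Mydgf, Tespa1 and Birc5. Tespa1 and Birc5 were also lost without mouse 2. Higher and lower calls numbered 21 and 41 without mouse 2, 26 and 51 without mouse 6, 82 and 133 without mouse 3, and 15 and 31 without mice 1 and 2. Of the leading genes, Cpa3, Tespa1, Mcm3, Mydgf, Birc5 and Gimap5 lost their call without mice 1 and 2. Fitted with no replicate block, 10 were higher and 28 lower, and DESeq2 called 11 and 32. The fit with no block lost the calls of Cdca3, Ccl9, Hist1h2ap and Birc5 and of Cd74, H2-Eb1, Trim47 and H2-Aa, among others.

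The second neighbour was a gate of 320 cells with a UMI of Flt3 and of Dntt and none of Procr, at 25 to 79 cells per mouse, which carry lymphoid priming. Of 4250 genes, 189 (4.45%) were higher and 193 (4.54%) lower in the Myl10 and Ctla2a cells. Flt3 and Dntt were absent from the gated cells by rule, so that the fall of lymphoid genes is part of the way the gates were drawn. Of 8 lymphoid priming genes tested, 7 were lower and 0 higher.

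The 12 leading increases were led by Pdzk1ip1 and Apoe. Apoe, apolipoprotein E, held 651, 486, 322, 568, 628 and 646 CPM in the gated cells of mice 1 to 6. In the Flt3 and Dntt gate it held 60.1 to 100 CPM, with no overlap, a log2 difference of 2.75 ± 0.11 (adjusted p = 1.26e-50). Gata2, a transcription factor of stem, mast and megakaryocyte cells, held 64.7 to 122 CPM against 20.5 to 33.4 CPM (1.72 ± 0.20, adjusted p = 1.86e-12). Pdzk1ip1 (2.82 ± 0.27), Gng11, a G protein gamma subunit (2.61 ± 0.23), Tfr2, the transferrin receptor 2 of erythroid cells (2.07 ± 0.27), Myct1 (1.77 ± 0.17) and the tetraspanin gene Cd63 (1.504 ± 0.097) were also higher. Sdsl, Fut8, Serpina3g, Krt18 and 4930519L02Rik were higher by 1.54 to 2.21.

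All 7 stem cell identity genes tested were higher (Gng11, Ifitm1, Ifitm3, Ly6a, Meis1, Pdzk1ip1 and Txnip), with a median of 0.90. Ly6a was higher by 0.86 ± 0.20, and was thus intermediate between the Flt3 and Dntt gate and the Procr gate, where it was higher still. Nfe2, a transcription factor of the megakaryocyte list, was higher by 1.04, and the receptor gene Kit by 0.83 (adjusted p = 0.00061).

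Among the 12 leading decreases was Irf8. It held 41.8, 43.1, 68.8, 37.9, 16.6 and 26.6 CPM in the gated cells and 173 to 400 CPM in the Flt3 and Dntt gate, a log2 difference of -2.81 ± 0.29 (adjusted p = 0.000746). Satb1, a chromatin organiser of lymphoid cells, held 8.98 to 28.3 CPM against 42.2 to 90.4 CPM (-2.05 ± 0.22). Cnn3, a calponin gene, showed the largest decrease of the named genes (-3.56 ± 0.26), followed by Ctss, the protease cathepsin S (-3.05 ± 0.28). Ighm, the heavy chain of IgM (-2.63 ± 0.19), Clec12a (-2.52 ± 0.24), Il12a (-2.19 ± 0.22), Ncf1 (-2.06 ± 0.26), Wfdc17, Tmem229b, Fbxw4 and Slpi were lower as well. Ighm in gated cells ran from 19.9 to 442 CPM, and immunoglobulin RNA was also high in the erythroid group of mouse 2, where Igkc held 10535 CPM. Of 21 G2 and M phase genes, 5 were lower and 0 higher, and of 21 S phase genes 1 was lower and 0 higher.

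The counts moved with the fit. Calls numbered 91 higher and 80 lower with no replicate block, 59 and 78 by DESeq2, and 101 and 105 without mice 1 and 2. Of the 382 calls, 171, 135 and 192 were shared with those fits in the same direction.

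**Figure D3:**
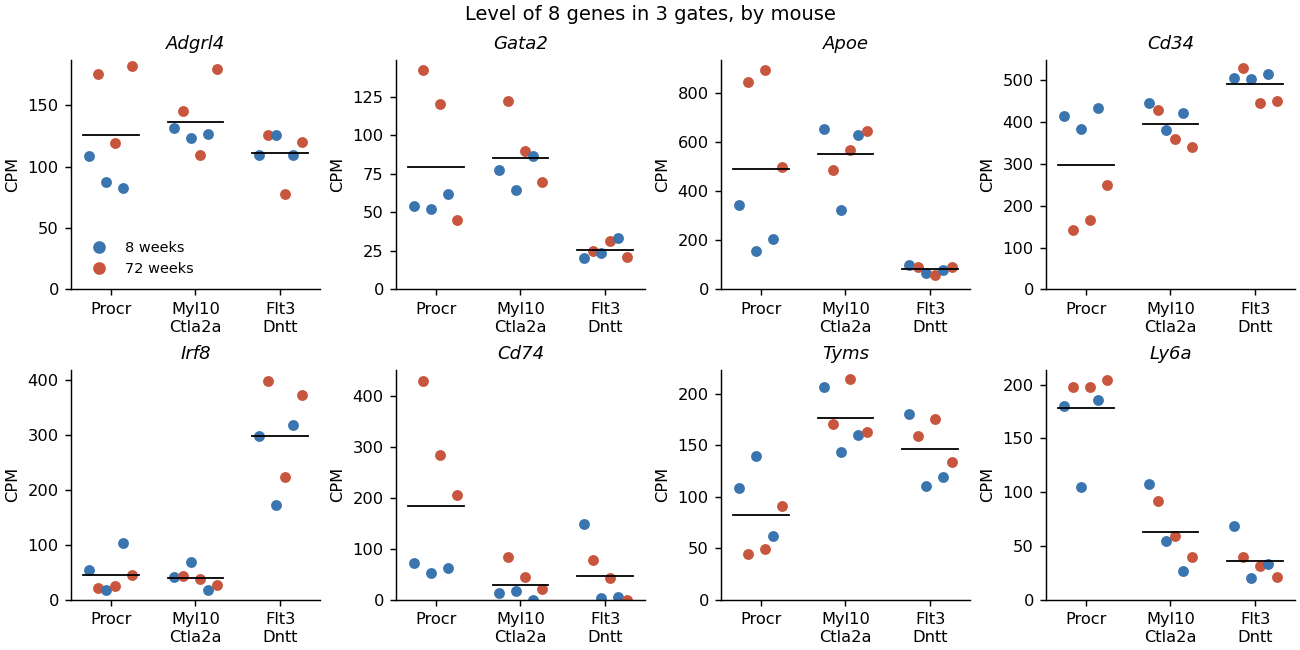
Level in CPM of 8 genes in the Procr gate, the Myl10 and Ctla2a gate and the Flt3 and Dntt gate, 1 point per mouse (mice 1 to 6 from left to right in each gate) coloured by age, with the mean as a line. Apoe and Gata2 are higher and Irf8 lower in the Myl10 and Ctla2a cells than in the Flt3 and Dntt gate in 6 of 6 mice, and Cd74 is lower and Tyms higher than in the Procr gate in 6 of 6 mice, whereas Adgrl4 overlaps across the 3 gates.

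The study compared progenitors of young and aged mice. In the gated cells, 3 of 4521 genes (0.0664%) were higher at 72 weeks and 0 (0.00%) lower at an edgeR adjusted p under 0.05, with 187 at an unadjusted p under 0.05. The 3 genes were Nupr1, Mt1 and H2-Aa. DESeq2 called the same 3 genes and no other, but on the same sums and the same filtered genes, so it is not separate support. Ages did not overlap for 244 genes that were higher at 72 weeks (5.40% of those tested) and 148 that were lower (3.27%), and nothing is read from these counts.

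Nupr1 codes for a small stress-responsive transcriptional regulator (chromosome 7, 126623249 to 126630861, minus strand). At 8 weeks the gated cells of mice 1, 3 and 5 held 2.99, 4.04 and 6.65 CPM of Nupr1, from 1, 2 and 2 UMIs. At 72 weeks those of mice 2, 4 and 6 held 61.0, 86.2 and 69.9 CPM, from 34, 66 and 21 UMIs. The ages were fully apart, with a log2 difference of 3.95 ± 0.42 (SE, adjusted p = 0.00028). The gene passed the filter on low counts through the aged mice alone. The transcript was captured in 16.7%, 20.4% and 27.5% of the aged gated cells, and in 1.56% to 4.88% of the young ones. In the erythroid group the share was 0.645% to 6.67%.

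Stem cell transcripts and Nupr1 were also counted in the same cells. Of the 56 aged members with Nupr1, 35 (62.5%) also held a UMI of Hlf or Mecom, against 41.7% of all aged members. These shares pool the aged mice and were not thinned, and members of the gate ran from 1737 to 21654 UMIs. How far depth enters them was not tested. Members with Hlf or Mecom made up 31.2% ± 9.29 of a young and 40.2% ± 6.79 of an aged mouse's gated cells (SD, n = 3, exact permutation p = 0.3). When they were left out, 0 genes were called by edgeR among 3644 tested, with 134 at an unadjusted p under 0.05, and Nupr1 stood at 3.19 (adjusted p = 0.196) with the same sign. Mt1 also lost its call, and H2-Aa was no longer tested. This step removed 58 young and 116 aged members, so it lowered the counts as well. In the Procr gate Nupr1 was listed at 0 in the 3 young mice and at 231, 243 and 249 CPM in the aged mice. How far stem cells within the gate carry the difference was not tested.

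Mt1 codes for metallothionein 1, which binds zinc and copper (chromosome 8, 94179082 to 94180327, plus strand). It held 62.7, 66.7 and 76.4 CPM in young and 226, 141 and 193 CPM in aged gated cells. The ages did not overlap, and the log2 difference was 1.41 ± 0.21 (adjusted p = 0.0134). A UMI of Mt1 was found in 26.6% to 29.3% of the gated cells of a young mouse and 38.9% to 48.2% of an aged one. The share in the erythroid group was higher in each mouse, from 77.3% to 90.3%. How far free RNA enters the level of Mt1 in gated cells was not tested. In the other LK cells Mt1 was far higher and the ages overlapped, at 394, 541 and 326 CPM in young and 472, 489 and 449 CPM in aged mice. A test of the difference between these age effects, fitted within mice, gave 1.31 ± 0.21 on the log2 scale (adjusted p = 0.00266), 1 of 9932 genes (0.0101%) called higher in the gated cells. Without the young mouse 3 this fell to 1.04 (adjusted p = 0.207). Mt2, the neighbouring metallothionein, showed no such separation, with 29.9, 48.5 and 23.3 CPM in young and 50.3, 27.4 and 79.9 CPM in aged gated cells.

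H2-Aa codes for the alpha chain of the MHC class II molecule I-A (chromosome 17, 34282744 to 34287823, minus strand). Young gated cells held 11.95, 12.13 and 0 CPM, the last with 0 UMIs, which allows up to 9.97 CPM. Aged ones held 91.6, 71.9 and 40.0 CPM, all above the young, a log2 difference of 2.95 ± 0.48 (adjusted p = 0.0312). It too passed the filter through the aged mice alone. H2-Eb1 (5.98, 6.07 and 0 CPM in young, 50.3, 41.8 and 20.0 CPM in aged) and Cd74 (11.95, 16.2 and 0 CPM in young, 84.4, 44.4 and 20.0 CPM in aged) had the same order but too few counts to be tested. Of 4 MHC class II genes tested 1 was called. H2-Ab1 held 102, 68.8 and 56.5 CPM in young and 144, 119 and 103 CPM in aged gated cells (0.69 ± 0.22, edgeR adjusted p = 0.908). H2-DMb1 (0.60) and H2-DMa (-0.16) were not called either. The other 10 genes of the macrophage and dendritic cell list summed to 8.96, 8.09 and 6.65 CPM in young and 3.59, 6.53 and 9.99 CPM in aged gated cells, and Itgax, Siglech, C1qa, Adgre1, Batf3 and Xcr1 were at 0. The erythroid group held 87.0 CPM of H2-Aa in the young mouse 1 and 0 to 7.50 CPM in the other mice. The test of age effects in gated against other LK cells, which called Mt1, did not separate H2-Aa (1.81 ± 2.24) or Nupr1 (1.28 ± 0.68). The edgeR adjusted p was 0.9998 for each.

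The calls of Mt1 and H2-Aa changed with single mice. Leaving out any of mice 1, 2, 3 or 5 left only Nupr1 past the threshold, leaving out mouse 4 left Nupr1 and Mt1, and without mice 1 and 2 only Nupr1 was called. Without mouse 6 there were 6 calls. Nupr1 passed in each of the 6 fits that left out 1 mouse. These fits share the filter that it passed through the aged mice alone, so they are not separate support.

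**Figure D4:**
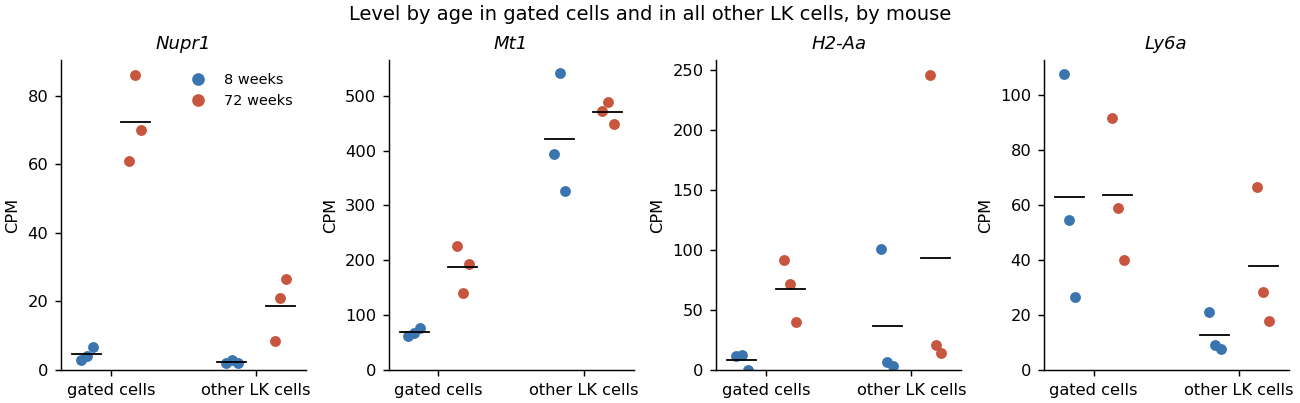
Level in CPM of Nupr1, Mt1, H2-Aa and Ly6a in gated cells and in all other LK cells, 1 point per mouse coloured by age, with the mean of each age as a line. In gated cells Nupr1, Mt1 and H2-Aa are higher in each 72-week mouse than in each 8-week mouse and Ly6a overlaps, whereas in the other LK cells Mt1 and H2-Aa overlap between ages. The age differences of Nupr1 and H2-Aa were not separated from those in the other LK cells (edgeR adjusted p = 0.9998 for each).

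Further genes with separated ages did not pass the threshold. Aldh1a1, a retinaldehyde dehydrogenase, held 0, 2.02 and 6.65 CPM in young and 34.1, 32.7 and 26.6 CPM in aged gated cells (3.43, adjusted p = 0.0626). It was the gene that a term for mice 1 and 2 added, making 4 calls. Aldh1a1 had a UMI in 0% to 4.88% of the gated cells of a young mouse and 14.9% to 20.4% of an aged one. Its share in the erythroid group was higher in each mouse, at 12.987% to 16.2% in young and 27.7% to 38.1% in aged mice. How far free RNA enters the level of Aldh1a1 in gated cells was not tested. Among better expressed genes with the smallest unadjusted p, Gng11 and Pdzk1ip1 of the stem cell list had log2 differences of 1.02 ± 0.24 and 0.93 ± 0.23, and H2-T22, Sf3b2, Rpl36a-ps1 and AC149090.1 of 0.69 to 1.10. On the lower side stood Plac8, a gene of myeloid progenitors, with 2307, 2801 and 2948 CPM in young and 1659, 1311 and 1968 CPM in aged gated cells (-0.72 ± 0.19, adjusted p = 0.506). Lmo4 (-1.12), Rgs10 (-1.01), Ptpn7 (-0.63) and Lsm3 (-0.53) had adjusted p from 0.411 to 0.815.

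Gene lists were counted in the same fit. Of 35 genes reported as higher in aged stem cells, 6 could be tested, among them Nupr1 and Mt1. Since Nupr1 was tested only for its level in aged mice, nothing is read from that list as a whole. Of all genes tested, 2321 of 4521 had a positive sign, with a median of 0.01. Of 12 stem cell identity genes tested 0 were called, and 11 had a positive sign, with a median of 0.30. Of 7 megakaryocyte genes 0 were called and 6 were positive (median 0.32). Of 12 granulocyte and monocyte genes 0 were called and 2 were positive (median -0.26). The filter on low counts can let in a gene through 1 age. Mecom of the stem cell list held 8.96, 28.3 and 16.6 CPM in young and 44.9, 62.7 and 59.9 CPM in aged gated cells. Nothing is read from the signs in these lists. Among 80 cytosolic ribosomal genes 0 were called and the median was -0.01. S phase genes (21 tested), G2 and M phase genes (20), MHC class I genes (11) and interferon response genes (7) held 0 calls.

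Genes that the study names for ageing were mostly not separated here, and the study chose them on these samples. Of 11, 9 were tested and 1 was called, Nupr1. Igkc is a gene of the gate. Sult1a1, a sulfotransferase, was too low to be tested, at 2.99, 6.07 and 13.3 CPM in young and 46.7, 73.2 and 9.99 CPM in aged gated cells. Rpl35 held 6546, 5779 and 2775 CPM in young and 4704, 2583 and 3523 CPM in aged cells. In this gene the young mouse 5 lay inside the range of the aged mice. Tmsb10, Gpx1, Cd34, Apoe and H2-D1 had log2 differences of -0.50, -0.43, -0.14, 0.12 and 0.41 that did not pass.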

How the data were processed

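Short-read libraries of LK cells from 6 mice were used, 3 per age. The deposited table holds raw counts (UMIs) of 17757 genes in 8436 cells. Per the submitters' processing notes the authors used Cell Ranger 3.0.2 and Seurat 3, and every deposited cell has at least 1001 genes and at most 4.99% mitochondrial UMIs. Long-read counts that the authors deposited are not per cell and were not used here, and the deposited annotation was not used here either. Positions are those of Gencode M21 on GRCm38. A cell's mouse was read from the number at the end of its name. The labels name a NextSeq instrument for all 6 mice and the methods a NextSeq or NovaSeq, a difference that could not be settled.

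The gate, the gene lists, the tests and the named genes were chosen with earlier results of these data known. UMIs of gated cells were summed per mouse. Genes kept by filterByExpr were normalised by TMM (factors 0.876 to 1.07) and tested with edgeR 4.0.16 (quasi-likelihood, robust), adjusted by Benjamini-Hochberg over all genes tested, at 0.05. The ribosomal list was made by a name pattern. SE is the log2 difference divided by the root of F, and intervals are at 95%. Comparisons of gates had the mouse as a block, because both sums come from the same animal, and needed 5 cells per gate and mouse. Genes of either gate were left out of calls. CPM were not scaled by TMM. Shares and list sums were compared by two-sided exact permutation over mice. Cells were thinned to 2000 UMIs (seed 7), leaving out 5 gated and 145 other cells. The limit for 0 UMIs is 3 UMIs of a mouse's gated cells, and covers counting error only. Scripts were tested on simulated data. R 4.3.3, DESeq2 1.42.0, Python 3.11.15, numpy 2.4.6 and scipy 1.17.1 were used.

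Genes were named by rule: the gate's genes and Adgrl4; in each comparison of gates up to 12 called genes each way with the largest difference, at least 50 CPM and the same sign in every mouse; for age every called gene and, below 10 calls, up to 6 each way with separated ages and the smallest p; up to 4 genes per list with the highest level, and called members; and the genes the study names for age. Aldh1a1, Mt2 and Ly6a under age were named after their values were seen. Alternatives were DESeq2, its size factors, no filter, other gates, thinning, the deepest or cycling cells left out, a term for mice 1 and 2, no block, and each mouse left out. Some genes that this rule names are not reported here.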

Additional observations from a re-analysis of the deposited data

Results flagged for a closer look

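For 2 genes the age difference in gated cells departed from that in the other LK cells of the same mice (edgeR, mouse as a block, 9932 genes, a test added after seeing the data). For Mt1 the age difference was larger in gated cells by 1.31 ± 0.21 on the log2 scale (SE, adjusted p = 0.00266), with aged above young in gated cells and overlapping ages in the other cells. For Ly6a it was smaller in gated cells, by -1.55 ± 0.28 (adjusted p = 0.00266). Ly6a held 108, 54.6 and 26.6 CPM in young and 91.6, 58.8 and 40.0 CPM in aged gated cells, a log2 difference of 0.04 ± 0.41. In the other LK cells it held 21.2, 9.05 and 7.64 CPM in young and 66.5, 28.5 and 17.7 CPM in aged mice, where the aged mouse 6 lay below the young mouse 1. The erythroid group of the aged mouse 2 held 23.1 CPM of Ly6a, against 2.09 to 5.58 CPM in the other mice. Without the young mouse 3 both calls were lost (adjusted p = 0.207 for each), and without the aged mouse 2 that of Ly6a (adjusted p = 0.391). Without members that held Hlf or Mecom the values were 1.27 for Mt1 and -2.12 for Ly6a, both called. The part of stem cells among the other LK cells in these values was not tested.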

How the results depend on the processing

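The 3 calls between ages became 18 with no filter on low counts, 0 (52 at an unadjusted p under 0.05) with cells thinned to 2000 UMIs, where Nupr1 and H2-Aa were too low to be tested, 1 with no limit on Flt3 and Dntt and, chosen after seeing the data, 0 without members that held Hlf or Mecom and 1 without mice 1 and 2. They numbered 1 to 6 when each mouse was left out, 1 without mouse 1, 2, 3 or 5 and 6 without mouse 6. Against the Procr gate, 128 calls became 43 by DESeq2, 322 with no filter, 29 thinned (only 2 mice had enough cells), 81 with all Procr cells and 46 without mice 1 and 2. They ran from 21 without mouse 4 to 215 without mouse 3, with 62 without mouse 2 and 77 without mouse 6. Against the Flt3 and Dntt gate, 382 calls became 137 by DESeq2, 32 thinned, 804 with all Flt3 cells and 206 without mice 1 and 2, and ran from 266 to 393 with a mouse left out. With no replicate block, 38 and 171 genes were called, and 38 and 171 of these were shared with the paired fit. The cause of these changes was not tested.

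Of the named genes, Cpa3 (-1.10) and Ccl9 (-0.021) reversed against all Procr cells, and H2-Aa (0.082) against the Procr gate when thinned. Of the 24 genes named for each gate comparison, in 314 and 309 gene and alternative pairs, 52 and 2 pairs lost the call. For age, 17 pairs of 289 lost it, 6 gained it and 0 reversed. The test of the age difference against that in other LK cells gave 2 calls, and 0 to 14 when each mouse was left out (0 without mouse 3, 14 without mouse 1 and 11 without mouse 6). H2-Aa ran from -0.61 without mouse 1 to 3.66 without mouse 2 in that test.

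The difference in share stayed positive, from 1.33 to 3.54 percentage points, and no exact test could fall below 0.1. Differences between ages that changed sign were S phase with the median over cells (-0.0211) and, with a mouse left out, S phase (-0.0208 to 0.0372), G2 and M phase (-0.0224 to 0.0399), mitochondrially encoded (-0.0511 to 0.204) and ribosomal genes (-1.14 to 1.94), all in percent of UMIs. The share with Itga2b turned to 0.542 points when thinned and ran from -8.31 to 3.15 with a mouse left out, and that with Elane from -7.36 to 11.4. In the smallest sum of gated cells, 300334 UMIs, 3 UMIs are 9.99 CPM, which limits what can be seen of low genes.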
